A study of Mus musculus with 59 samples.

Results

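Secretory genes of the conducting airway were followed across lung, liver and forestomach of mice given a polycyclic aromatic hydrocarbon. The genes were Scgb1a1, Scgb3a1, Scgb3a2, Bpifa1 and Bpifb1, 5 in all, listed by name with earlier results of these data known. Probes were assigned through their accession, which gave 1 probe each for 4 of the 5, among the 20018 symbols matched on the array. Scgb3a2 was not analysed here. The animals were adult male Muta™Mouse, a transgenic strain that carries a bacterial reporter gene for mutation assays, about 16 weeks old at sampling. By gavage, over 28 days, they were given olive oil alone (vehicle, dose 0) or benzo(b)fluoranthene (BbF) in it, at 25 (low), 50 (medium) or 100 (high) mg/kg-bw/day. Sampling followed 72 hours later. The labels are not of one mind on the compound: benz(a)anthracene stands in the exposure label and the design text, BbF in the titles and the treatment protocol, and BbF is the name used here. Each dose group held 5 mice. Vehicle mice are numbered 1 to 5, low-dose mice 6 to 10, medium-dose mice 11 to 15 and high-dose mice 16 to 20, and all tissues of one animal carry its number. One low-dose mouse, number 7, has no lung array here, so that lung was measured in 19 mice and liver and forestomach in 20 each.

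Club cells are non-ciliated secretory cells of the bronchioles. They release secretoglobins, small secreted proteins of the airway surface liquid, and carry cytochrome P450 enzymes that activate inhaled and circulating xenobiotics, among them aromatic hydrocarbons. Larger airways also hold mucous and serous-like secretory cells, whose products include the secretoglobin Scgb3a1, mucins, and proteins of the BPI fold family such as Bpifa1 and Bpifb1, which bind lipids and take part in defence against bacteria. Pieces of whole lung were used as the source of RNA, so a lower level of these transcripts can mean fewer secretory cells, less airway in the piece or less RNA per cell, and these cannot be told apart in bulk tissue.

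Values are log2 ratios of Cy5 (tissue RNA) to Cy3 (a reference RNA pooled from mouse cell lines, the same on each array), so that 1 unit is a doubling over the reference. They describe one probe at a time, and levels are not compared between genes. Spreads are compared between genes on this ratio scale. The tissues carried their own markers. Sftpc, a surfactant protein gene of alveolar cells, lay between 6.84 and 7.72 in lung, against -0.26 to 0.24 in liver and -0.27 to 0.69 in forestomach. Alb, the hepatocyte gene for albumin, lay between 5.96 and 7.72 on the 19 liver arrays that measured it. It lay between 0.01 and 0.78 in lung but between 0.17 and 4.79 in forestomach. Krt13, a keratin of stratified squamous epithelium, lay between 4.76 and 5.54 in forestomach and between -1.33 and 0.09 in liver. In lung it ran from -2.21 to 4.17. Some arrays thus held a marker of another tissue at a high level, and the cause was not tested. A probe was well above background in Cy5 for 44.8% to 52.7% of probes on 18 lung arrays and for 68.8% on that of mouse 13. Of the 3 liver slides, one with 8 arrays reached 12.9% at most, against 37.1% to 46.1% on the others. Each slide held 1 tissue, so tissue and slide cannot be told apart. Whether the mice of a group were housed or dosed apart is not given, and p-values measure the spread between these mice.

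Promoter windows are shown for Scgb3a1, Bpifa1 and Bpifb1, and none was at hand for Scgb1a1. The windows of 300 bases span the RefSeq transcription start (assembly GRCm38.p6). All lie on the plus strand and are written 5′ to 3′. Capitals mark matches, on either strand, to 5 short motifs: the TATA box TATAAA, the FOXA motif as TGTTTAC or TATTTAC, the CEBP motif TTGCNNAA, the NKX2-1 motif as CTCAAG or CAAGTG, and GCGTG, the core of the site bound by the aryl hydrocarbon receptor. Bpifb1 has 2 annotated starts.
Bpifa1, chr2:154142630-154142929: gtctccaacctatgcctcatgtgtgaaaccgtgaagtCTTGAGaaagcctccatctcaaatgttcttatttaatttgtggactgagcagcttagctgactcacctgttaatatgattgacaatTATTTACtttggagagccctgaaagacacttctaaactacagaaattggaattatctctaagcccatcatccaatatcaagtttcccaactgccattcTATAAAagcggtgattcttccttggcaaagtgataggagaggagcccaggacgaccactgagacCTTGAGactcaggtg
Bpifb1, first start, chr2:154190568-154190867: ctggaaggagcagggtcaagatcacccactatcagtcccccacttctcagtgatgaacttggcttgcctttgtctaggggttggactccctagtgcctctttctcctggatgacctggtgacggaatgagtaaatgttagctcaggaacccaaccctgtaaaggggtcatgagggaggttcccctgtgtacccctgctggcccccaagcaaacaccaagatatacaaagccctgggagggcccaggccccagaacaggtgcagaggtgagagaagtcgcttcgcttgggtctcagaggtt
Bpifb1, second start, chr2:154200130-154200429: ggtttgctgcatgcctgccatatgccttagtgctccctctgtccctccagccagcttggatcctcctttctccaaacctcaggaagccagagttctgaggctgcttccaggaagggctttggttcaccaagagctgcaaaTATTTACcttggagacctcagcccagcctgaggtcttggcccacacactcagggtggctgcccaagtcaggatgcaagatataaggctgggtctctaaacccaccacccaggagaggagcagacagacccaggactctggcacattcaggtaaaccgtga
Scgb3a1, chr11:49663345-49663644: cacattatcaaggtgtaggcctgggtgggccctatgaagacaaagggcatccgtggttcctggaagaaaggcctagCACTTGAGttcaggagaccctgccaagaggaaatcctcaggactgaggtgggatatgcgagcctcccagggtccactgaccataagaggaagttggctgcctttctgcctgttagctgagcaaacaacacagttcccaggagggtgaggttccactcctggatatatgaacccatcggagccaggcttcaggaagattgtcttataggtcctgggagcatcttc

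The window of Bpifa1 held 1 TATA box, at position -29 from the start, 1 FOXA match (TATTTAC, at -127) and 2 NKX2-1 matches (CTCAAG read on the opposite strand). The same FOXA letters stood at -110 from the second start of Bpifb1, and the window of its first start held none of the motifs. In the window of Scgb3a1, CTCAAG and CAAGTG overlapped each other, again on the opposite strand. TATTTAC occurs in 3.04% of the 32851 promoter windows in the same table, TGTTTAC in 3.65%, TATAAA in 13.6%, TTGCNNAA in 10.8%, CTCAAG in 15.9% and CAAGTG in 13.6%. The letters GCGTG, present in 32.4% of all windows, were in none of the 4. These are matches of letters, and no binding was measured.

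Scgb1a1, which encodes the most abundant secretoglobin of club cells, was the steadiest of the 4 in lung. In vehicle lungs the log2 ratios of mice 1 to 5 were 8.35, 8.19, 7.93, 8.21 and 8.23. At the low dose mice 6, 8, 9 and 10 had 7.96, 8.01, 7.90 and 8.36, at the medium dose mice 11 to 15 had 8.34, 7.84, 7.90, 8.32 and 8.23, and at the high dose mice 16 to 20 had 8.29, 7.98, 7.86, 8.41 and 8.38. All 19 lungs thus lay within 7.84 to 8.41, and every dose group overlapped the vehicle group. The means were 8.18 ± 0.16 (SD, n = 5) for vehicle and 8.18 ± 0.25 (SD, n = 5) for the high dose. Cy5 intensity ran from 196557 to 354506 in lung without saturation, and the 10 repeated spots of the probe on one array had a median SD of 0.09.

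Scgb3a1 varied far more among lungs. Mice 1 to 5 on vehicle had log2 ratios of 5.08, 5.51, 1.00, 3.08 and 1.95. The low-dose mice 6, 8, 9 and 10 had 5.39, 3.29, 3.19 and 4.81, the medium-dose mice 11 to 15 had 5.31, 3.56, 1.25, 1.48 and 1.67, and the high-dose mice 16 to 20 had 2.78, 1.90, 3.19, 4.25 and 5.83. High and low lungs occurred at each dose, and no dose group separated from vehicle. Within dose groups the SD was 1.64, against 0.22 for Scgb1a1. The 10 repeated spots of Scgb3a1 had a median SD of 0.15 within an array, so the spread between mice was several times that between spots.

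Bpifa1, which encodes a surfactant-like secreted protein with antibacterial action, had the widest spread. Vehicle mice 1 to 5 had 5.37, 6.35, 0.22, 0.82 and 1.64, and mouse 3 was the one lung of 19 in which the probe was not well above background. Low-dose mice had 5.78, 1.61, 3.95 and 3.64, medium-dose mice 4.85, 1.90, 0.34, 0.67 and 1.61, and high-dose mice 0.53, 0.31, 0.90, 4.07 and 7.07, in the same order as above. The raw Cy5 intensity of its probe ran from 86 to 22771 among the 19 lungs. Its SD within dose groups was 2.41, where the median of the 26774 probes above background in at least 10 lungs was 0.16, and 0.00373% of those probes had a larger SD.

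Bpifb1, a longer member of the BPI fold family made by mucous-type secretory cells, had a smaller span of log2 ratios. Vehicle mice had 4.02, 4.38, 1.40, 2.32 and 2.34, low-dose mice 3.90, 2.22, 2.38 and 3.96, medium-dose mice 3.98, 2.50, 1.23, 2.20 and 2.30, and high-dose mice 2.50, 2.51, 2.79, 2.65 and 3.83. The SD within dose groups was 0.97, larger than for all but 0.355% of the probes just named, and for Scgb3a1 that share was 0.0598%. For Scgb1a1, 26.3% of these probes had a larger SD. Scaled to the 75th percentile of each array, Cy5 of Bpifb1 alone ran from -0.13 (mouse 3) to 5.64 (mouse 2) in log2. Its Cy3 intensity was 85.5 and 1380 in these mice, and the part of Cy3 in the span of the ratios was not tested.

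**Figure D1:**
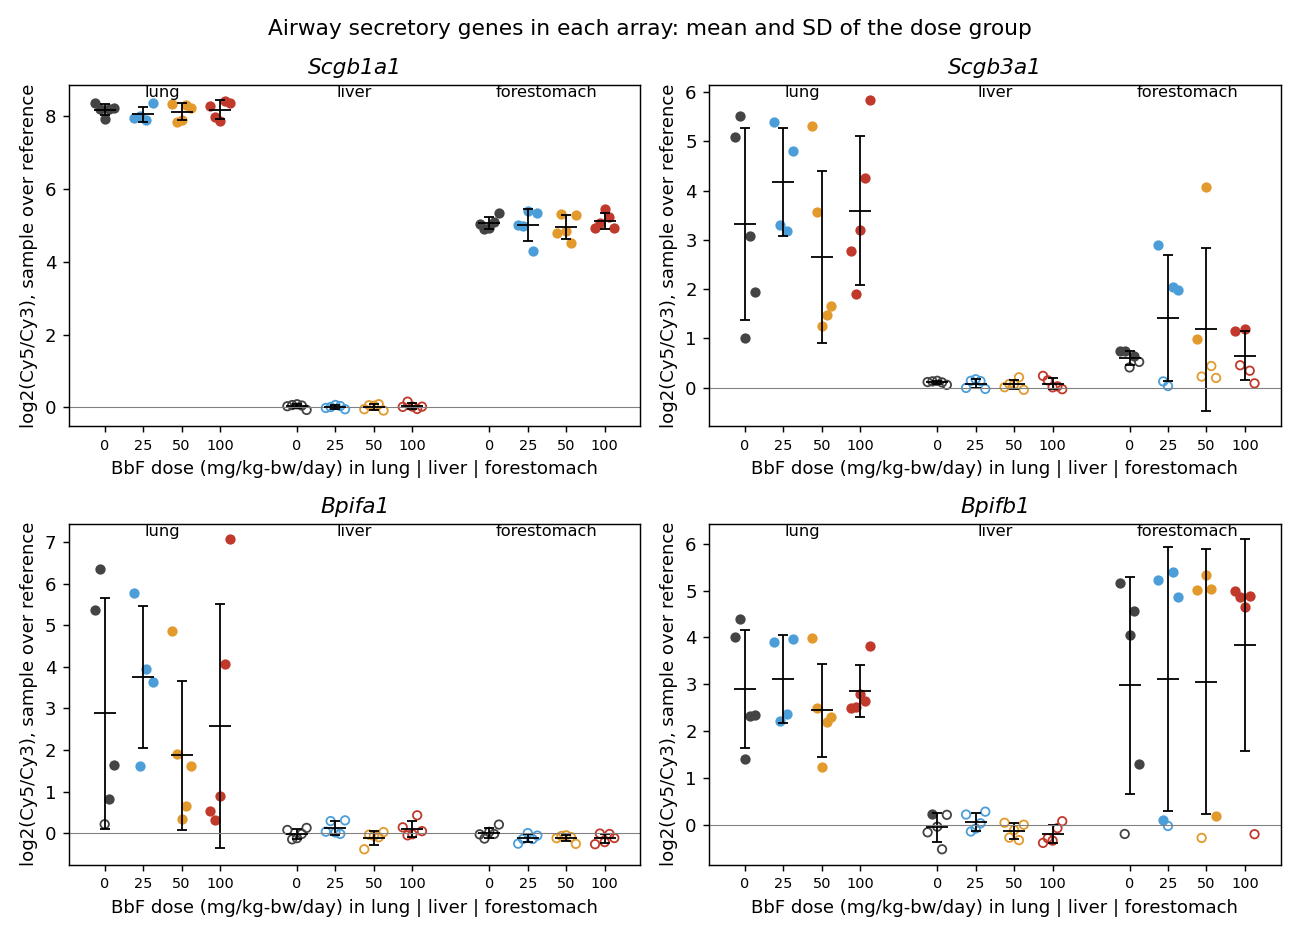
Log2 ratio of tissue over reference RNA (vertical axis) for 4 airway secretory genes on 59 arrays, by tissue and dose of BbF (horizontal axis, mg/kg-bw/day; colours mark the dose). Points are arrays, open where the probe was not well above background in Cy5, and bars show the mean and SD of the group. Scgb1a1 is tight in lung (7.84 to 8.41) and forestomach (4.30 to 5.46), whereas the other 3 spread widely at each dose in lung and Bpifb1 divides into high and low arrays in forestomach.

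Whether BbF changed these genes in lung was tested at each dose with limma, and a probe was called where it had at least a 1.5-fold change with an adjusted p no higher than 0.05. None of the 4 genes was called at the low, medium or high dose, and none had an unadjusted p under 0.05. Of all 55681 probes tested, the low dose had 0.345% called, the medium dose 0.469% and the high dose 1.45%. The log2 changes of the 4 genes at the high dose lay between -0.30 and 0.26 (smallest adjusted p 0.924). None had a trend over dose either (smallest adjusted p 0.853), where 1.23% of probes were called.

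How firmly a change can be bounded differed between the genes. For Scgb1a1 the high-dose change was 0.003 with a 95% interval of -0.26 to 0.27, which leaves out a change of 1.5-fold in either direction. For Scgb3a1 it was 0.26 (-1.58 to 2.11), for Bpifa1 -0.30 (-3.02 to 2.42) and for Bpifb1 -0.04 (-1.14 to 1.06), so a change of 2-fold in either direction lay within each of these intervals. Of 5 high-dose lungs, Scgb1a1 was below the whole vehicle range in 1 and above it in 2. From the Cy5 intensity alone, scaled to the 75th percentile of each array, its high-dose change was -0.07 (95% interval -0.35 to 0.21). On that scale Scgb3a1 changed by -0.06 (-2.73 to 2.61), Bpifa1 by -0.62 (-3.37 to 2.12) and Bpifb1 by -0.85 (-2.69 to 0.99). The intervals of Scgb3a1 and Bpifb1 were thus wider than those from the ratio. Within the slides that held both groups, the high-dose lungs differed from vehicle by 3.93 for Bpifa1 on slide 1, by 0.38 on slide 2 and by -5.44 on slide 3, each from 1 or 2 arrays a group. The sign thus turned between slides, as it did for Scgb3a1 (3.09, 1.15 and -2.96) and Bpifb1 (0.90, 0.93 and -1.69). For Scgb1a1 it turned as well, with smaller differences (0.17, -0.21 and -0.13).

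**Figure D2:**
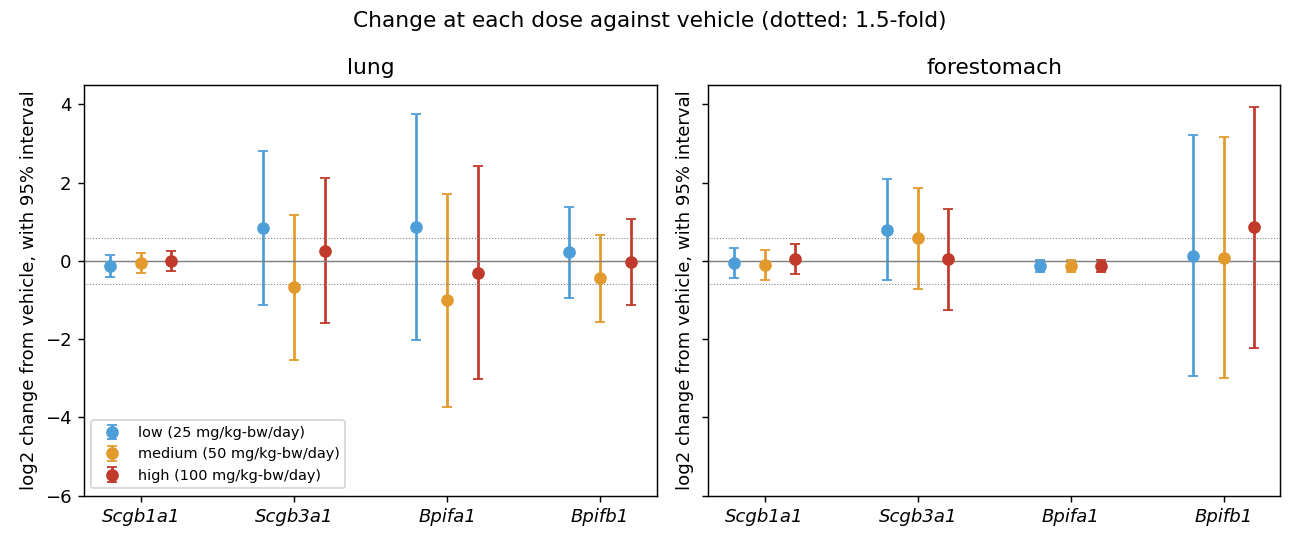
Log2 change from vehicle with its 95% interval (vertical axis) for each gene (horizontal axis) at 3 doses of BbF (colours) in lung and in forestomach. Each interval includes 0, and those of Scgb1a1 are narrow, while those of Bpifa1 in lung and Bpifb1 in forestomach span several log2 units. Dotted lines mark 1.5-fold.

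The deviations of Scgb3a1, Bpifa1 and Bpifb1 from their dose-group means ran together over the 19 lungs. Pearson's r was 0.90 for Scgb3a1 and Bpifa1 (rho 0.81), 0.91 for Scgb3a1 and Bpifb1 (rho 0.84) and 0.84 for Bpifa1 and Bpifb1 (rho 0.79). In a two-sided permutation test that shuffled one gene within dose groups 100000 times, the adjusted p over 14 relations was 1.87e-04 for each r and 5.6e-04 for each rho. Without the 2 lungs farthest from the median of the first gene, r was 0.87, 0.89 and 0.81. Among the 6 highest lungs of each gene, 5 were shared by all 3 (mice 1, 2, 6, 11 and 20, from each of the dose groups), and of the 6 lowest, 3 were shared (mice 3, 13 and 14).

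The relation did not hold equally on each slide. For Scgb3a1 and Bpifb1, r was 0.90, 0.89 and 0.92 on slides 1 to 3 (7, 6 and 6 arrays). For Scgb3a1 and Bpifa1 it was 0.92, 0.25 and 0.96, and for Bpifa1 and Bpifb1 0.73, 0.29 and 0.98. Slide 2 held none of the 6 highest lungs of any of the 3 genes. Without mouse 13, the array with the largest share of probes above background, r was 0.90, 0.91 and 0.84. The log2 ratios of Bpifa1 left a gap between 1.90 and 3.64, with 11 lungs below and 8 above it. Below the gap r was 0.52 for Scgb3a1 and Bpifa1, 0.69 for Scgb3a1 and Bpifb1 and 0.44 for Bpifa1 and Bpifb1, and above it 0.77, 0.88 and 0.57, given as a description.

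Over all 19 lungs Scgb1a1 did not pass the test with any of them: r was 0.45 with Scgb3a1 (adjusted p = 0.129, permutation), 0.45 with Bpifa1 (0.129) and 0.50 with Bpifb1 (0.0712). Without mouse 14 the last of these passed (r = 0.54, permutation, adjusted p = 0.0474). Its one relation that passed was with the mean of 10 genes of ciliated cells, the motile-cilia cells that share the airway lining (r = 0.64, rho = 0.64, permutation, adjusted p = 0.0115 for r and 0.0157 for rho). That r was 0.46, 0.33 and 0.74 within the slides and 0.64 without the 2 farthest lungs, and with slide means removed it was 0.52 (permutation, adjusted p = 0.11). With Cy5 intensity alone it was 0.28 (permutation, adjusted p = 0.533), and without mouse 3 it was 0.59 (permutation, adjusted p = 0.0739). The ciliated mean lay between 3.08 and 4.08 in all lungs and overlapped between the dose groups, with medians of 3.67 for vehicle and 3.44 for the high dose. For Bpifb1 and the ciliated mean r was 0.57 (permutation, adjusted p = 0.0712). None of the 4 relations to the mean of 8 squamous genes passed, and mouse 6 alone had a high squamous mean (2.52, with -0.66 to -0.10 in the other 18 lungs).

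**Figure D3:**
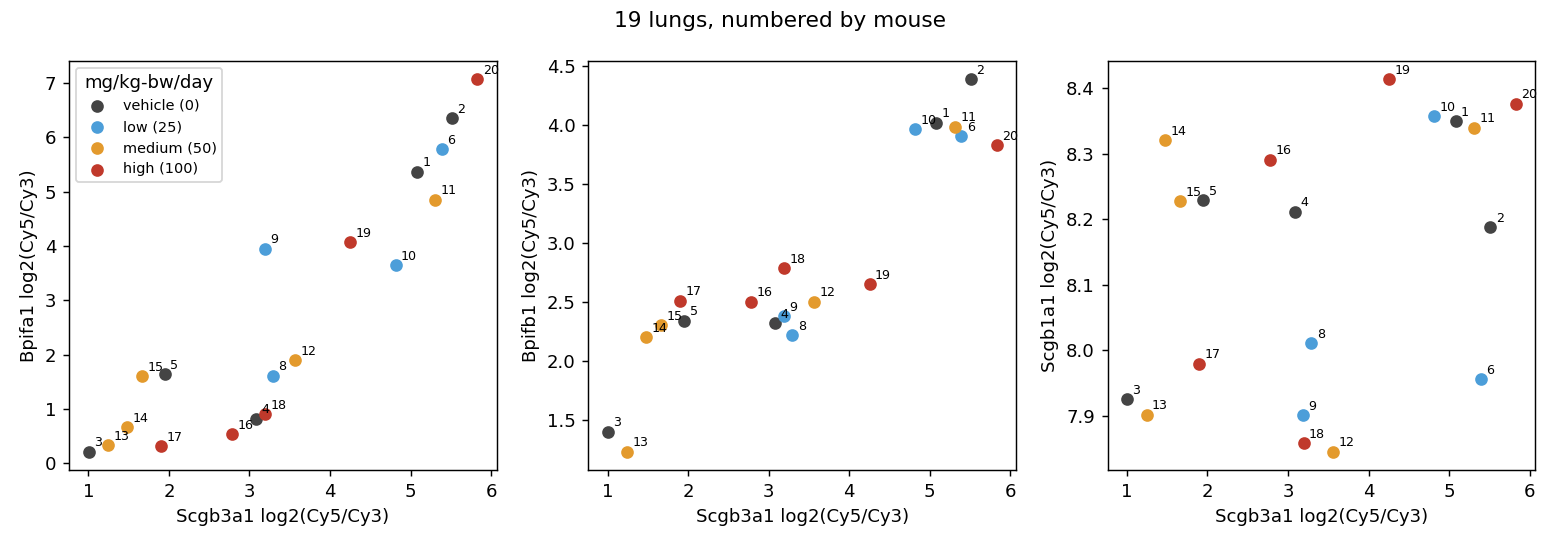
Log2 ratio of Scgb3a1 (horizontal axis) against Bpifa1, Bpifb1 and Scgb1a1 (vertical axes) in 19 lungs, each point a mouse with its number, coloured by dose in mg/kg-bw/day. Mice 1, 2, 6, 11 and 20 are high for Scgb3a1, Bpifa1 and Bpifb1 at once, and mice 3, 13 and 14 low, with each dose on the high side. The vertical axis for Scgb1a1 spans less than 1 unit.

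Over the 15758 probes above background on all 19 lungs, the named genes most like each member were listed by r of the deviations. For Scgb1a1 they were Zfp664 (0.92), Snap23 (0.91) and Cyp2f2 (0.91), the last a cytochrome P450 of club cells. For Scgb3a1 they were Muc5b (0.82), a gel-forming mucin, Mlxipl (0.80) and Ndufs1 (0.80). For Bpifa1 they were Ezh1 (0.83), Mlxipl (0.81) and Ndufs1 (0.80), and for Bpifb1 Muc5b (0.88), Pam (0.86) and Pigr (0.85), the receptor that carries immunoglobulin A across epithelia. These were picked as the highest of many probes, all measured on the same 19 arrays, and are a description. Slide means were not removed from the deviations. Scgb1a1 lay between 8.23 and 8.41 on slide 1, 7.86 and 8.21 on slide 2 and 7.84 and 8.35 on slide 3. How much of its likeness to other genes follows the slide was not tested.

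Other genes of airway secretory cells were likewise not called in lung. None of 13 other club cell genes, 9 genes of goblet and mucous cells or 11 airway transcription factors was called at any dose. The median log2 change at the high dose was -0.13 for the club cell genes, -0.09 for the goblet and mucous genes and -0.09 for the transcription factors, beside -0.004 over all probes. Levels differed among the club cell genes. Cyp2f2 lay between 6.08 and 7.09 in lung, and Cbr2, a carbonyl reductase, between 4.76 and 5.33. Krt15 had a median of -0.69 and was above background in 10 of 19 lungs. Foxa1, a forkhead factor of airway epithelium, had a high-dose change of -0.56 (limma adjusted p = 0.00685) that stayed under 1.5-fold, and Foxa2 of -0.28 (adjusted p = 0.0719). Nkx2-1, which specifies lung epithelium, changed by 0.15 (adjusted p = 0.534).

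Among the marker genes of other lung cells, 1 was called, at the high dose, where 1.45% of all probes were called. In lists of this size 1 call is about what that share gives, so it is no result about the lists. Grp, the gastrin-releasing peptide gene of neuroendocrine cells, had log2 ratios of 2.83, 2.17, 2.09, 0.85 and 3.03 in vehicle mice 1 to 5. In high-dose mice 16 to 20 Grp had 0.40, 0.07, 0.69, 0.06 and 0.09, with no overlap. The share of all probes without overlap was not counted. Grp was above background in all 14 lungs of the other groups and not well above background in any high-dose lung, so the fall is given as a bound. Vehicle was at least 2.87-fold higher after normalization between arrays and at least 3.24-fold in scaled Cy5 (limma adjusted p = 7.82e-04). The changes were -1.14 at the medium dose (adjusted p = 0.0731) and -0.50 at the low dose (adjusted p = 0.744). None of the ciliated, basal, alveolar type 1, alveolar type 2, squamous, glandular stomach, hepatocyte or smooth muscle genes was called in lung. The median high-dose change was -0.11 for 10 ciliated genes, -0.19 for 5 alveolar type 1 genes and 0.05 for 6 alveolar type 2 genes.

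Most relatives of the members were near background in lung. Of 9 measured secretoglobin relatives, Scgb1c1 was above background in all 19 lungs (4.00 to 5.90), as was Scgb2b20 at a low ratio (0.27 to 1.14). Of 12 measured BPI fold relatives, Bpifb5 (2.34 to 4.23) and Lbp, the lipopolysaccharide-binding protein gene (0.75 to 1.71), were above background in all 19, and Bpifa5 in 14 (-0.11 to 2.84). None of the relatives was called in lung at any dose, where 0.345%, 0.469% and 1.45% of all probes were called from low to high dose. In forestomach Scgb1c1 and Bpifb5 were above background on no array.

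Levels across tissues were compared in the 15 vehicle arrays. All 4 genes were higher in lung than in liver, where 24.4% of probes were called. Scgb1a1 had log2 ratios of -0.07 to 0.09 in vehicle liver and was not well above background in any of the 20 livers. Lung exceeded that background by 8.15 on the log2 ratio scale, or 283-fold (limma adjusted p = 9.06e-18). Set against the dimmest signal well above background, lung was at least 1664-fold higher in Cy5 scaled to the 75th percentile of each array, and at least 6095-fold higher in the Cy5 channel after normalization between arrays. The size thus depends on the scale, each bound holds for its own scale, and both are open to dye bias because no dyes were swapped. For Scgb3a1, also not above background in any liver, lung was at least 5.84-fold higher in scaled Cy5 and at least 13.4-fold after normalization between arrays (limma adjusted p of the ratio 6.45e-04). For Bpifa1 these bounds were at least 3.65-fold and at least 7.52-fold (adjusted p = 0.0184), with 4 of the 5 vehicle lungs above background. Bpifb1 was above background in 1 of 5 vehicle livers, that of mouse 2 (0.23), and lung exceeded this level, which is background in the other 4, by 2.94 on the log2 ratio scale (limma adjusted p = 0.012).

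The calls for the 2 BPI fold genes were the less firm ones. For Bpifa1 the lung to liver call was lost without vehicle mouse 1 (adjusted p = 0.0995) or mouse 2 (0.0882), the 2 vehicle lungs with high levels, and with Cy5 intensity alone (0.0737). For Bpifb1 it was lost with Cy5 intensity alone (0.0655).

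Forestomach was unlike lung for each gene in its own way. Scgb1a1, whose high ratio in forestomach was part of the reason for choosing it, is described without a test. It was above background in all 20 forestomachs, from 4.30 to 5.46 with a median of 5.03. The vehicle mean was 5.06 ± 0.17 (SD, n = 5), 3.12 below lung, and each of the 19 mice with both tissues had the higher ratio in lung, by 2.40 to 3.79. Forestomach is lined by stratified squamous epithelium and has no airway. The mean of the 13 other club cell genes lay between 1.61 and 2.29 in forestomach, below its range of 3.59 to 4.47 in lung. Of these genes Cyp2f2 (median 5.41) and Aldh1a7 (4.65 to 5.77) were high in forestomach, while Cbr2 (median 1.85, lung 5.02) and Lypd2 (median 1.34, lung 3.30) were lower there than in lung. Krt15, a keratin on the same list, was above background in 20 of 20 forestomachs (median 3.30) and in 10 of 19 lungs. Sox2, a transcription factor of foregut epithelium, had a median of 3.41 in forestomach and 1.77 in lung. Nkx2-1 and Foxj1, the regulator of ciliated cells, were above background in none, and Sftpc in 1.

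The distance between tissues differed between the ratio and Cy5 alone. In lung the Cy5 intensity of the Scgb1a1 probe had a median of 282565, against 2720 in forestomach and 77.6 in liver. The Cy3 intensity, which comes from the same reference RNA on each array, had medians of 2776, 150 and 50.8 in the same order, and so moved with Cy5. Cy3 was 0.67% to 1.47% of Cy5 in lung. From Cy5 alone, scaled to the 75th percentile of each array, vehicle lung exceeded vehicle forestomach by 6.48 on the log2 scale (89.3-fold), where the ratio gave 3.12 (8.68-fold). For forestomach over liver the order was the other way, with 4.25 (19.0-fold) from Cy5 alone and 5.03 (32.7-fold) from the ratio. The part that the Cy3 signal played in the ratios was not tested. The same rise was seen for Bpifb1 in forestomach, where Cy3 ran from 61 to 4428 as Cy5 ran from 70 to 63597.

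**Figure D4:**
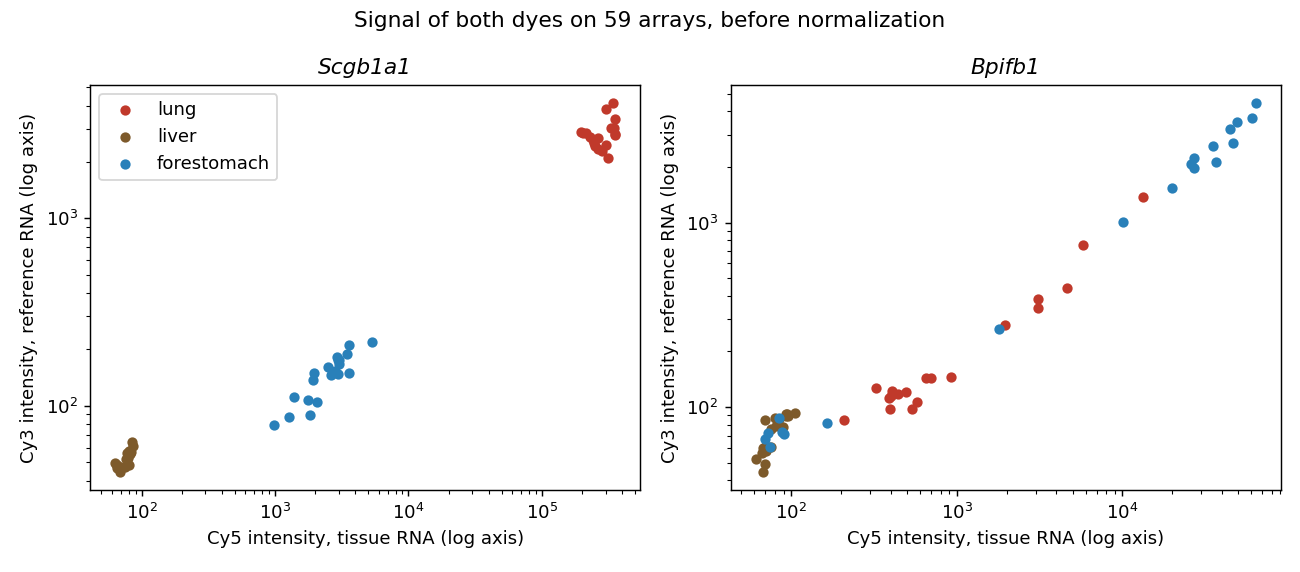
Cy3 intensity of the reference RNA (vertical axis, log scale) against Cy5 intensity of the tissue RNA (horizontal axis, log scale) for the probes of Scgb1a1 and Bpifb1 on 59 arrays, before normalization; colours mark the tissue. Cy3 rises with Cy5 from tissue to tissue although the reference RNA is the same, from 44.5 to 4109 for Scgb1a1.

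Scgb3a1 and Bpifa1 were lower in vehicle forestomach than in vehicle lung, where 19.1% of probes were called. For Scgb3a1 the difference was 2.72 (95% interval 1.36 to 4.07, limma adjusted p = 0.00331). Its probe was above background in 3 of the 5 vehicle forestomachs (Cy5 intensity 82.4 to 100), so the difference is from a level near background. For Bpifa1, not above background on any forestomach array, lung was at least 5.83-fold higher in scaled Cy5 and at least 7.43-fold after normalization between arrays (limma adjusted p of the ratio 0.0238). That call was lost without mouse 1 (adjusted p = 0.128) or mouse 2 (0.112), with median centring (0.0668) and with Cy5 intensity alone (0.0777). Scgb3a1 was above background in 10 of 20 forestomachs, and its highest values were those of mouse 13 (medium dose, 4.08), mouse 6 (low dose, 2.89), mouse 9 (low dose, 2.05) and mouse 10 (low dose, 1.97), with the other 16 between 0.03 and 1.20.

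Bpifb1 reached levels in forestomach that did not differ from lung by the test (-0.09, 95% interval -1.91 to 1.74, limma adjusted p = 0.964) and that exceeded liver, with its 1 of 5 arrays above background, by 3.03 on the log2 ratio scale (adjusted p = 0.012), where 20.1% of probes were called. The call against liver was lost without vehicle mouse 1 (adjusted p = 0.0686), mouse 3 (0.0592) or mouse 4 (0.0943). These means hide a division among mice. Vehicle mice 1 to 5 had 5.16, -0.19, 4.06, 4.56 and 1.30. Low-dose mice 6 to 10 had 5.23, 0.10, -0.02, 5.39 and 4.86, medium-dose mice 11 to 15 had 5.01, -0.27, 5.32, 5.03 and 0.20, and high-dose mice 16 to 20 had 4.99, 4.86, 4.66, 4.87 and -0.19. In all, 13 of 20 forestomachs lay between 4.06 and 5.39 and 7 between -0.27 and 1.30, with vehicle, low and medium dose holding 2 of the 7 each and the high dose 1. The 13 were less alike in Cy5 alone. Its intensity ran from 1806.5 (mouse 3) to 63597 (mouse 9), or from 3.50 to 8.36 in log2 when scaled to the 75th percentile.

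The same division ran through genes of the glandular stomach, the mucosa that adjoins the forestomach. Cblif, the gene for gastric intrinsic factor, lay between -0.08 and 0.57 in the 7 forestomachs with the lowest Bpifb1 and between 5.55 and 8.71 in the other 13. Atp4b, a subunit of the proton pump of parietal cells, lay between -0.18 and 3.21 in the 7 and between 5.14 and 6.87 in the 13. Pgc, the gene for pepsinogen C, lay between 0.08 and 0.76 against 3.25 to 5.56. The 7 lowest forestomachs of Bpifb1 were also the 7 lowest for Cblif, Gkn2, Atp4b, Pgc, Tff2, Muc5ac and Agr2. The mean of 8 glandular stomach genes ran from 0.14 to 6.62 and overlapped between the dose groups, with medians of 3.98, 5.93, 5.69 and 5.28 from vehicle to high dose. Muc5ac and Tff1 were above background in all 20, and Cblif in 14. The part of glandular mucosa in the Bpifb1 level was not tested. Since the arrays fell into separate clusters, no correlation is given.

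Scgb1a1 did not divide in this way. In the 7 forestomachs with low Bpifb1 it lay between 4.91 and 5.38, and in the other 13 between 4.30 and 5.46, and 2 of its own 7 lowest values were among those of the 7. Its lowest value, 4.30, was in mouse 9, which had the highest Bpifb1 (5.39) and the highest Cblif (8.71). Krt13 lay between 4.90 and 5.54 in the 7 and between 4.76 and 5.33 in the 13. Scgb3a1 lay between 0.03 and 0.74 in the 7 and between 0.34 and 4.08 in the 13.

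**Figure D5:**
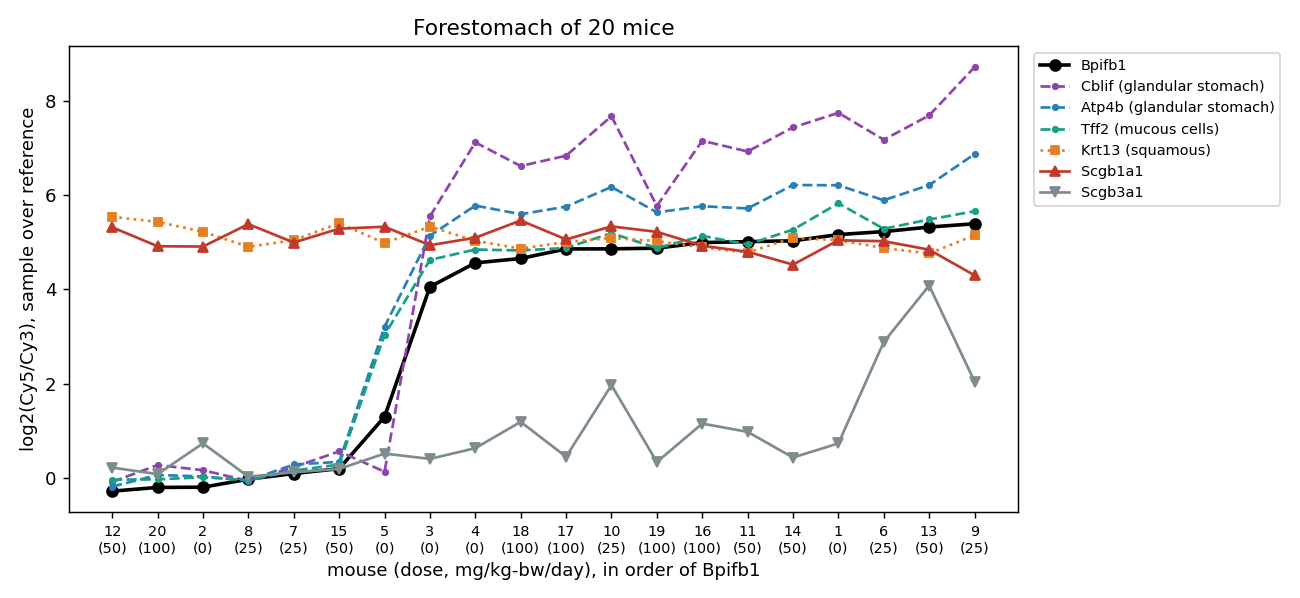
Log2 ratios in the forestomach of 20 mice (horizontal axis, mouse number with dose in mg/kg-bw/day in brackets) placed in order of Bpifb1, with 3 members, 2 glandular stomach genes (Cblif, Atp4b), Tff2 of mucous cells and squamous Krt13. Bpifb1 and the stomach genes are low on the left and high from the eighth mouse on, with Bpifb1 at 1.30 in the seventh and 4.06 in the eighth and Atp4b and Tff2 already at 3.21 and 3.04 in the seventh, while Scgb1a1 and Krt13 stay near 5 throughout.

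BbF changed none of the 4 genes in forestomach or liver by the thresholds. In forestomach no probe at all was called at the low or medium dose (0% of probes), 0.07% were called at the high dose and 0.0611% had a trend (39 and 34 probes, with 20 to 48 and 16 to 41 when 1 mouse was left out). No member had an unadjusted p under 0.05, and the smallest adjusted p of a member was 0.629, at the high dose. The high-dose change of Scgb1a1 in forestomach was 0.05 (95% interval -0.33 to 0.43), which leaves out 1.5-fold on the ratio scale, whereas Cy5 alone gave 0.07 with an interval of -0.51 to 0.65 that includes it. That of Bpifb1 was 0.86 (-2.22 to 3.94) from the ratio and 2.19 (-2.69 to 7.06) from Cy5 alone. In liver the calls covered 0% of probes at the low and medium doses, 0.00359% at the high dose and 0.00898% for the trend, and the members, near or under background, had none with an unadjusted p under 0.05. The difference between the high-dose changes of lung and liver was called for no member (0.312% of probes called), nor was that between lung and forestomach (0.763% of probes called), with a smallest adjusted p of 0.932 and 0.934. Without 1 mouse these probe counts of 174 and 425 became 85 to 258 and 246 to 401. For Scgb1a1 the lung and forestomach changes differed by -0.05 (95% interval -0.52 to 0.42). No member had a liver level to change from, other than Bpifb1 on 1 array, so the contrast with liver restates the lung change.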

How the data were processed

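Total RNA of right lung lobe, left liver lobe and forestomach carried Cy5 and the universal mouse reference RNA Cy3, hybridized together by the authors to Agilent SurePrint G3 Mouse arrays, with no dye swap. Per the file headers, the deposited scanner files hold the intensity of each spot and its background as read by Feature Extraction 10.7.3.1, not normalized. The authors also deposited a table of processed log2 ratios, which correlated with the values used here at r of 0.967 to 0.999 per array and was run as an alternative; its column medians lay between -0.04 and -0.01, and its exact centring is not known.

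Median intensities without background correction were loess-normalized within arrays in limma 3.58.1 (R 4.3.3), as in the methods of the study. Control and non-uniform spots were left out, and repeated spots were averaged to 55681 probes (484 missing values). Accessions without version were matched to RefSeq symbols (26413 probes, 20018 symbols). Each dose was compared with vehicle in one fit per tissue; vehicle tissues shared one fit of 15 arrays, and differences between tissues one fit of 8 groups. The study's Fs test was not run. No array was dropped, and missing spots were left out of the fit of their probe. The number of arrays limits the precision.

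The members and gene lists were chosen with earlier results of these data known. By rule, the text names each member, marker genes called in lung (up to 6 a list, by the high-dose change) and the 3 genes most like each member over 19 lungs; other names illustrate levels and were chosen after their values were seen. Mouse numbers pair the tissues because a number marks one animal. Across probes the deviations of one mouse from its group means correlated between lung and liver with a median r of -0.03, between lung and forestomach of 0.035 and between forestomach and liver of 0.03. The fit of the high dose against vehicle in lung was tested on simulated data with normal noise. It recovered 98 of 100 probes changed by 1 log2 unit and 100 of 100 changed by 2, with 2 false calls. The changed probes were drawn at random from all probes. This recovery does not carry over to Scgb3a1, Bpifa1 and Bpifb1. Their SDs within dose groups in lung were 1.64, 2.41 and 0.97, against a median of 0.16 for probes above background. The other steps were not tested in this way.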

Additional observations from a re-analysis of the deposited data

Results flagged for a closer look

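Of 48 groups of 4 or 5 arrays (4 genes in 12 tissue and dose groups), 3 held a value far from the others by Dixon's criterion, which chance meets in about 1 group in 20. The forestomach of medium-dose mouse 13 had a Scgb3a1 ratio of 4.08, with the next at 0.98. The forestomach of high-dose mouse 20 had a Bpifb1 ratio of -0.19, with the next lowest of its group at 4.66; the same mouse had Cblif at 0.28 and Atp4b at 0.07. The lung of the same mouse 20 had a Bpifb1 ratio of 3.83, with the next at 2.79, and it was also the highest of all lungs for Scgb3a1 (5.83) and Bpifa1 (7.07). No cause was tested for any of them.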

How the results depend on the processing

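None of the alternatives (normexp background correction, median centring, the deposited table, a filter on dim probes, the slide as a block, the rank of the dose, leaving out each mouse) or of the one added after seeing the data (Cy5 intensity alone) made a member pass the thresholds in a dose contrast, a trend or a difference between high-dose changes. The filter removed the members from the liver contrasts, so it gives no value there. The number of all probes called at the high dose in lung was 807, against 3504 with median centring. At the medium dose it was 261, against 402 with median centring, and for the trend 683, against 2647 with median centring. With the slide as a block, liver calls went from 0 to 58 at the medium dose, from 2 to 139 at the high dose and from 5 to 154 for the trend. Other settings left the liver counts at 11 or fewer, and leaving out 1 mouse gave 0 to 39 at the high dose and 0 to 27 for the trend. In forestomach the lowest counts came without mouse 2 (20, high dose) and mouse 17 (16, trend), and for the differences in high-dose change without mouse 20 (85, liver) and mouse 17 (246, forestomach). In forestomach 39 high-dose calls became 143 with median centring and 21 with Cy5 intensity alone. Between vehicle tissues median centring and Cy5 intensity alone gave 7165 and 41638 calls for lung against liver (13605 before) and 5677 and 35970 for forestomach against liver (11208 before), and median centring gave 5277 for lung against forestomach (10615 before). Calls for a difference in high-dose change fell from 174 to 37 with Cy5 intensity alone for liver, and from 425 to 205 (median centring) and 253 (Cy5 intensity alone) for forestomach. Vehicle lung against vehicle liver gave 4 members, and 2 with Cy5 intensity alone. Vehicle lung against vehicle forestomach gave 2 members (Scgb1a1 left out), and 1 with median centring, Cy5 intensity alone or the filter, which removed Bpifa1. With the mouse number as a replicate block (paired by animal) the same comparisons gave 4, 2 and, for forestomach against liver, 1 member, and the block changed no other call; no member differed in its high-dose change (0). Leaving out vehicle mice in turn gave 3 to 4, 1 to 2 and 0 to 1 members.

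Signs of uncalled changes turned as follows. With median centring, Scgb1a1 became 0.18 at the low and 0.32 at the medium dose in lung, and 0.17 and 0.024 in forestomach, Bpifb1 became 0.31 at the high dose in lung, and Scgb3a1 became -0.0095 at the high dose in forestomach. With the deposited table, Scgb1a1 became 0.043 at the medium dose in lung and -0.0098 at the high dose in forestomach. With Cy5 intensity alone, Scgb1a1 became -0.069 and Scgb3a1 -0.064 at the high dose and Bpifb1 -0.16 at the low dose in lung, Scgb1a1 became 0.085 at the low dose and Scgb3a1 -0.20 at the high dose in forestomach, and vehicle forestomach against liver became -0.43 for Scgb3a1 and -0.69 for Bpifa1. With the slide as a block, Scgb1a1 became -0.075 and Scgb3a1 -0.048 at the high dose in lung.

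Leaving out 1 mouse at a time moved the lung changes of Scgb1a1 over -0.12 to 0.016 at the medium and -0.061 to 0.084 at the high dose, of Scgb3a1 over -0.32 to 0.81 and of Bpifa1 over -1.43 to 0.57 at the high dose, and of Bpifb1 over -0.15 to 0.59 at the low and -0.41 to 0.34 at the high dose. In forestomach the ranges were -0.15 to 0.12 (low) and -0.032 to 0.12 (high) for Scgb1a1, -0.15 to 0.82 (medium) and -0.10 to 0.18 (high) for Scgb3a1, and -0.66 to 0.92 (low) and -0.71 to 0.91 (medium) for Bpifb1. For vehicle forestomach against liver Bpifa1 ranged over -0.0023 to 0.062, and for vehicle lung against forestomach Bpifb1 over -1.25 to 0.56. Of the 14 relations in lung 4 passed, 3 to 7 with each lung left out in turn (7 without mouse 14, which added Scgb1a1 with Bpifb1 and the ciliated mean with Scgb3a1 and with Bpifb1), a choice made after seeing the data. The relations between Scgb3a1, Bpifa1 and Bpifb1 passed in each of these, while that of Scgb1a1 with the ciliated genes was lost without mouse 3 (permutation, adjusted p = 0.0739). With dose and slide means removed, Bpifa1 and the ciliated mean had r = -0.037, and with median centring Scgb1a1 and the squamous mean had r = 0.36. Left-out lungs moved r with the squamous mean over -0.23 to 0.24 for Scgb3a1, -0.46 to 0.24 for Bpifa1 and -0.42 to 0.28 for Bpifb1. The cause of these shifts was not tested.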

Other observations

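Single lungs carried markers of other epithelia. The lung of low-dose mouse 6 had Krt13 at 4.17 and Krt4 at 5.73, keratins of squamous epithelium, with -0.90 and 0.36 as the next highest lungs, and Krt5 of basal cells at 2.87. The lung of vehicle mouse 4 had the gastric genes Gkn2 at 5.28 and Tff1 at 5.04, with the next highest at 0.33 and 0.74. The lung of low-dose mouse 10 had Clca1, a gene of goblet cells, at 6.95, with the next at 0.39. Reg3g, an antibacterial lectin gene, ranged from 0.06 to 6.10 in lung, with mouse 20 highest.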
